A study of Homo sapiens with 6 samples.

Results

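SDF4 and its 4 paralogs in the CREC family, CALU, RCN1, RCN2 and RCN3, were followed in HK-2 cells, an immortalized human line of renal proximal tubular cells, after knockdown of INO80. The 5 genes were found by symbol among the 57905 genes of the deposited table, with 1 row each, and all 5 were among the 15343 genes with enough reads to be tested. RNA-seq covered 6 libraries. In 3 of them the cells had received a pool of siRNAs against INO80, and in 3 a non-targeting control pool, both by RNAiMAX for 48 h. The genotype was labelled wild type in both groups, and no other agent was named for either. INO80 is the ATPase of a chromatin remodelling complex that moves nucleosomes. Because 1 pool was used, loss of INO80 and other effects of those siRNAs cannot be told apart. SDF4 was chosen by its fall in this same contrast, so its values are a description and no test of it is given, while the paralogs were chosen by homology.

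The CREC family consists of soluble proteins with several EF-hand loops, the helix-loop-helix folds that hold calcium, and its members live in the lumen of the secretory pathway. SDF4 encodes Cab45, which resides in the Golgi lumen, binds calcium that the pump ATP2C1 brings in, and is known for sorting secreted cargo at the trans-Golgi network. CALU encodes calumenin, an endoplasmic reticulum (ER) protein known to restrain the vitamin K-dependent carboxylation of other proteins, and RCN1, RCN2 and RCN3 encode the reticulocalbins of the same compartment.

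The libraries held between 16829273 and 23784599 reads on genes. CPM is a gene's count scaled to a fixed number of reads on the tested genes after TMM normalization, and FPKM, which divides by exonic length, is used to compare genes with each other. INO80 itself fell in every library of its siRNA, from a mean of 49.9 CPM (SD 3.89, n = 3) to one of 13.3 CPM (SD 1.12, n = 3), and its log2 fold change was -1.90 ± 0.10 (SE; edgeR adjusted p = 0.000161). Of the 12 proximal tubule markers 11 were in the table, and 8 of these had a mean FPKM under 1, with SLC22A6 and SLC22A8 listed at 0 and LRP2 and CUBN near 0, while GGT1, DPP4 and MME gave most of the summed level of 62.6 to 72.5 FPKM under control siRNA and 61.8 to 73.2 FPKM under INO80 siRNA. The leukocyte markers summed to 0.27 to 0.50 FPKM under control siRNA and 0.25 to 0.36 FPKM under INO80 siRNA, with PTPRC and CD3E at 0. The fibroblast markers summed to 50.6 to 115.7 FPKM and 49.4 to 101 FPKM, mostly from LUM, with PDGFRA and PDGFRB under 1. The 7 epithelial markers summed to 455.9 to 501.4 FPKM under control siRNA and 418.1 to 505.7 FPKM under INO80 siRNA. KRT19 was the highest of them and CDH1 lay under 1. In bulk RNA, fewer cells that express a gene and less RNA per cell cannot be told apart.

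SDF4 (ENSG00000078808, minus strand of chromosome 1 from 1152288 to 1167411 in GRCh37, exonic length 4709 bases) had 259.9, 267.2 and 269.5 CPM in the control libraries, in the order of their replicate numbers. The INO80 siRNA libraries, in the same order, had 81.4, 96.6 and 95.2 CPM. The control libraries lay within a few percent of each other, and every INO80 siRNA library lay far below all of them. These levels rest on 4262 to 5458 reads per control library and 1636 to 2332 reads per INO80 siRNA library. The mean went from 265.5 ± 4.99 CPM to 91.0 ± 8.40 CPM (SD, both n = 3), which left 34.3% of the control level. Taken by replicate number, the INO80 siRNA library held 0.313, 0.361 and 0.353 of the SDF4 level of its control library. The log2 fold change was -1.54 ± 0.07 (SE, 95% interval -1.71 to -1.37). Among the tested genes, SDF4 went from rank 734 by mean FPKM, the 95.2nd percentile, to rank 2568, the 83.3rd percentile.

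CALU (ENSG00000128595, plus strand of chromosome 7 from 128379346 to 128411861, exonic length 4537 bases) was the most abundant member. It had 817.7, 697.7 and 697.2 CPM in the control libraries and 734.4, 650.5 and 677.6 CPM in the INO80 siRNA libraries. The groups overlapped, since INO80 siRNA replicate 1 lay above control replicates 2 and 3. The means were 738 ± 69.4 CPM and 687 ± 42.8 CPM, a log2 fold change of -0.10 ± 0.08 (SE, 95% interval -0.28 to 0.08), which did not pass the test (edgeR adjusted p = 0.593). Replicate 1 was the highest library of both groups, and within each replicate number the INO80 siRNA library held 0.898, 0.932 and 0.972 of the control level. With the replicate number as a block, CALU passed at nearly the same log2 fold change of -0.10 ± 0.03 (SE; edgeR adjusted p = 0.0251). It passed in 1 of 14 alternatives, with adjusted p values from 0.0251 to 0.92. A small RNA pseudogene, RN7SL81P, lies inside the CALU span.

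RCN1 (ENSG00000049449, plus strand of chromosome 11 from 31833939 to 32127301, exonic length 7225 bases) had 493, 463 and 466 CPM under control siRNA. Under INO80 siRNA it had 526, 484 and 495 CPM. Replicate 1 was again the highest of both groups, and the groups overlapped on this scale. The log2 fold change was 0.08 ± 0.06 (SE, 95% interval -0.05 to 0.22), and RCN1 passed neither without the block (edgeR adjusted p = 0.54) nor with it (adjusted p = 0.0626). In FPKM, which the authors scaled by total reads alone, the groups did not overlap, with 66.5, 64.4 and 64.9 FPKM against 70.8, 68.0 and 69.8 FPKM. The span listed for RCN1 overlaps that of PAX6, whose log2 fold change was 0.17 (edgeR adjusted p = 0.39), and the sources used here do not state how strand was counted.

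RCN2 (ENSG00000117906, plus strand of chromosome 15 from 77223960 to 77242601, exonic length 5887 bases) had 79.0, 67.5 and 74.1 CPM in the control libraries and 69.0, 68.2 and 71.6 CPM in the INO80 siRNA libraries. The INO80 siRNA values lay inside the control range. The log2 fold change was -0.08 ± 0.07 (SE, 95% interval -0.24 to 0.08; edgeR adjusted p = 0.643).

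RCN3 (ENSG00000142552, plus strand of chromosome 19 from 50030875 to 50050219, exonic length 2093 bases) was barely measured in these cells. It had 4, 9 and 19 reads in the control libraries and 3, 22 and 15 reads in the INO80 siRNA libraries, or 0.24 to 0.98 CPM and 0.15 to 0.91 CPM. The interval of its log2 fold change of 0.02 ran from -1.45 to 1.496 (edgeR adjusted p = 0.994), so changes within that range were not detectable at this depth.

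Of the 4 paralogs, none passed, against 1.75% of all tested genes in either direction, 1.49% lower and 0.261% higher. At an unadjusted p under 0.05 and in limma the count was also 0, as it was in DESeq2 for CALU, RCN1 and RCN2, where RCN3 had no adjusted p. Over all tested genes 9.20% were lower and 7.18% higher at an unadjusted p under 0.05, and DESeq2 called 610 of 13320. With the replicate block 1 of the 4 passed, CALU, against 24.8% of all tested genes. SDF4 was the 1 member whose libraries did not overlap in CPM between groups, as was so for 22.8% of all tested genes, a count that the choice of SDF4 fixes. The median log2 fold change of the 4 paralogs was -0.03, beside 0.01 for all tested genes.

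**Figure D1:**
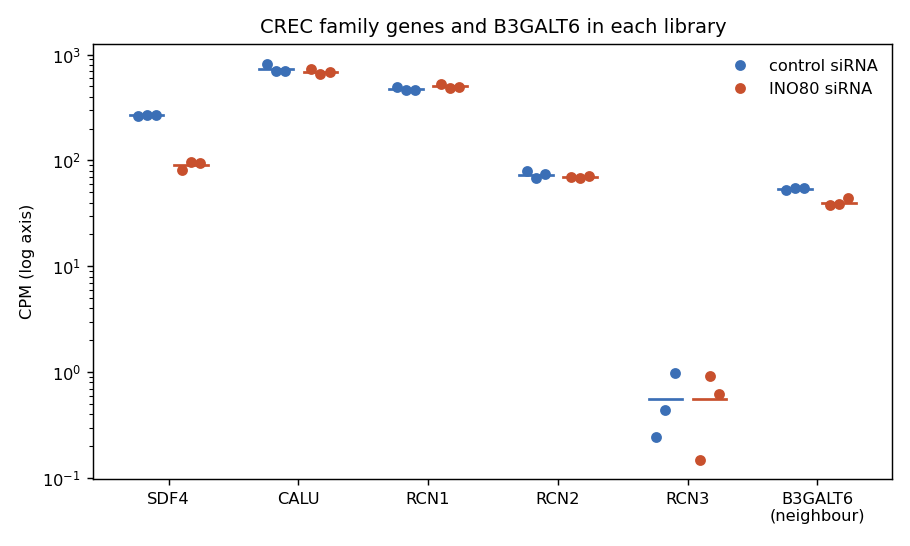
CPM on a log axis of the 5 CREC genes and of B3GALT6, the gene beside SDF4, in each of 6 libraries. Points are libraries (control siRNA blue, INO80 siRNA orange, replicates 1 to 3 from left to right) and lines are group means. SDF4 went from a mean of 265.5 to 91.0 CPM, CALU, RCN1 and RCN2 overlapped between groups, RCN3 lay under 1 CPM, and B3GALT6 lay lower in all 3 INO80 siRNA libraries.

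Per exonic length, the order of the family was the same in both groups. CALU stood first with 161.7 ± 12.1 FPKM under control siRNA (SD, n = 3), followed by RCN1 with 65.3 ± 1.08 FPKM. SDF4 came next with 56.1 ± 2.07 FPKM, then RCN2 with 12.4 ± 0.79 FPKM and RCN3 with 0.26 ± 0.19 FPKM. No neighbours in this order overlapped between genes. SDF4 and RCN1 were the closest pair, with 53.8 to 57.6 FPKM for SDF4 and 64.4 to 66.5 FPKM for RCN1. Under INO80 siRNA, SDF4 had 19.4 ± 2.26 FPKM, above RCN2 with 11.9 ± 0.50 FPKM and far below RCN1 with 69.5 ± 1.41 FPKM. The ratio of SDF4 to RCN1 within a library was 0.809, 0.885 and 0.888 under control siRNA. Under INO80 siRNA it was 0.237, 0.306 and 0.295.

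The summed FPKM of the 5 genes was 287.9 to 309 in the control libraries and 246.8 to 256 in the INO80 siRNA libraries. SDF4 made up 19.0% ± 1.40 of the sum under control siRNA and 7.69% ± 1.00 under INO80 siRNA. The share of CALU was 54.6% ± 1.93 and 60.0% ± 1.21, and that of RCN1 was 22.1% ± 0.49 and 27.5% ± 0.14. Since shares add up, those of CALU and RCN1 move with the share of SDF4 as well as with their own FPKM.

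**Figure D2:**
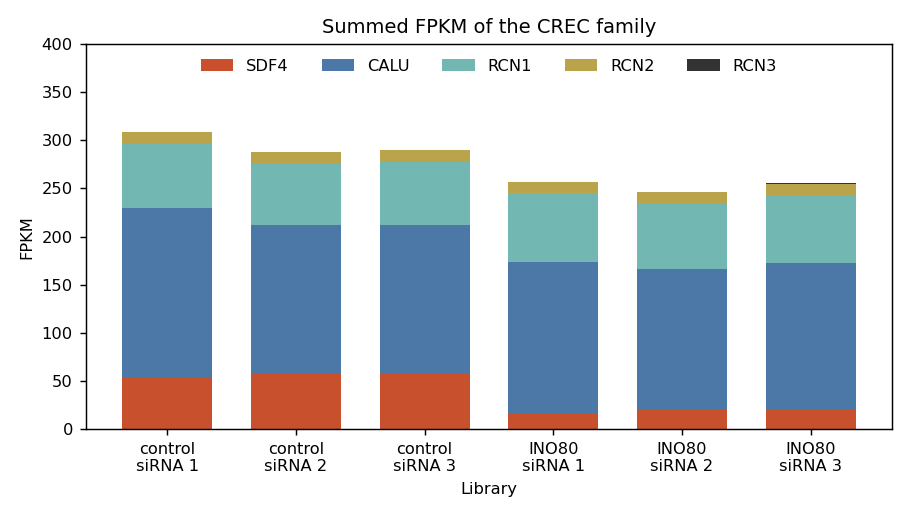
Summed FPKM of the 5 CREC genes in each library, stacked by gene from an axis that starts at 0. The SDF4 segment at the bottom was 53.8 to 57.6 FPKM in the control libraries and 16.8 to 20.8 FPKM in the INO80 siRNA libraries, and the CALU and RCN1 segments stayed the largest.

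SDF4 lies head to head with B3GALT6 (ENSG00000176022, plus strand of chromosome 1 from 1167629 to 1170421 in GRCh37), with 217 bases between the listed spans. B3GALT6 encodes a Golgi galactosyltransferase that builds the linker by which glycosaminoglycan chains are joined to proteoglycans. It had 52.7, 54.7 and 54.7 CPM under control siRNA. Under INO80 siRNA it had 37.6, 38.3 and 44.04 CPM, so that all 3 INO80 siRNA libraries lay below all 3 control libraries. The mean went from 54.0 ± 1.14 CPM to 40.0 ± 3.52 CPM, a log2 fold change of -0.43 ± 0.08 (SE, 95% interval -0.61 to -0.26; edgeR adjusted p = 0.0382). The call was narrow. Each of the 6 fits with 1 library left out lost it (adjusted p from 0.0633 to 0.156), as did limma on FPKM (adjusted p = 0.288 and 0.18), and with the replicate block it passed with an adjusted p of 1.58e-06. Over the 14 alternatives the adjusted p ran from 1.58e-06 to 0.288, and 6 were under 0.05.

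The fall of SDF4 was the larger of the pair. SDF4 stood at 2.93, 2.90 and 2.92 times the FPKM of B3GALT6 in the control libraries, and at 1.28, 1.49 and 1.28 times in the INO80 siRNA libraries. The 2 ranges did not overlap, and the ratio varied more between the INO80 siRNA libraries than between the control libraries. Because SDF4 was chosen by its fall, this difference is a description and no test.

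Of the 20 genes whose whole span lay within 100 kb of SDF4, 10 had enough reads to be tested, and B3GALT6 was the 1 gene of these 10 that passed, with and without the block, against 1.75% of all tested genes without it and 24.8% with it. The median log2 fold change of the 10 was -0.04, beside 0.01 for all tested genes. UBE2J2, a ubiquitin-conjugating enzyme of the ER, had a log2 fold change of -0.03 (edgeR adjusted p = 0.909). ACAP3, which activates the GTPase of the ARF proteins, had 0.12 (adjusted p = 0.597), CPSF3L, a subunit of the Integrator complex also named INTS11, had 0.07 (adjusted p = 0.669), and GLTPD1, a ceramide-1-phosphate transfer protein, had 0.14 (adjusted p = 0.463). PUSL1, a pseudouridine synthase whose span overlaps ACAP3 and CPSF3L, had -0.15 (adjusted p = 0.547). The sodium channel subunit SCNN1D had -0.23 (adjusted p = 0.719), the receptor TNFRSF18 had -0.02 (adjusted p = 0.984), and the unnamed transcripts RP11-465B22.8 and RP5-890O3.9 had -0.20 (adjusted p = 0.852) and -0.04 (adjusted p = 0.959). RP5-890O3.9 lies inside CPSF3L. The other 10 neighbours, among them TTLL10, TNFRSF4 and the microRNA genes MIR200A, MIR200B and MIR429, had too few reads to be tested.

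**Figure D3:**
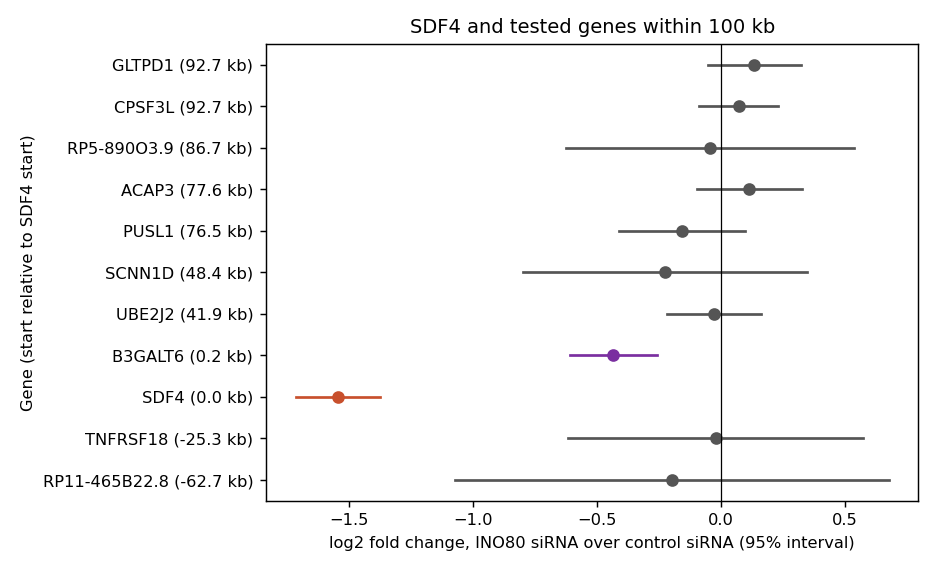
Log2 fold change of SDF4 and of the 10 tested genes within 100 kb, with 95% intervals from the edgeR fit, ordered along chromosome 1 by start relative to the SDF4 start. SDF4 lay at -1.54 and B3GALT6 at -0.43, and the intervals of the other 9 genes all cross 0.

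The next tested genes by start position on either side of each paralog did not pass in edgeR with the treatment alone. Genes with too few reads can lie between. They were FAM71F2 and OPN1SW beside CALU, with log2 fold changes of 0.03 (edgeR adjusted p = 0.982) and -0.11 (adjusted p = 0.867), and PAX6 and EIF3M beside RCN1, with 0.17 (adjusted p = 0.39) and 0.13 (adjusted p = 0.276). SCAPER and RP11-797A18.4 stood beside RCN2, with -0.42 (adjusted p = 0.172) and 0.36 (adjusted p = 0.834). FCGRT and NOSIP stood beside RCN3, with 0.32 (adjusted p = 0.722) and 0.11 (adjusted p = 0.634). With the replicate block PAX6, EIF3M, SCAPER and FCGRT passed, with adjusted p values of 0.0224, 0.024, 0.00475 and 0.0217. Over all tested genes 24.8% passed with the block and 1.75% with the treatment alone.

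The DNA between SDF4 and B3GALT6 is shown because both genes start from it and both were lower. In GRCh38.p14, whose coordinates differ from those of the table, the stretch from the most upstream SDF4 start to the B3GALT6 start is chr1:1232032-1232236, 205 bases with a GC content of 79.0%, with starts from GENCODE and the sequence from RefSeq. It is written 5′ to 3′ on the plus strand, so that B3GALT6 is read to the right and SDF4 to the left. The capitals mark CCAAT on either strand and the palindrome CACGTG.
SDF4-B3GALT6 interval: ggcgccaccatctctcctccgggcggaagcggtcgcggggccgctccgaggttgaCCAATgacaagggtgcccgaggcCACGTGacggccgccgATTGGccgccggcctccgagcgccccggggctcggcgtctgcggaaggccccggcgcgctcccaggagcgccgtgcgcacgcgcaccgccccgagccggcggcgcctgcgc

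CCAAT, the letters bound by NF-Y, stood at bases 56 to 60 on the plus strand and at bases 95 to 99 on the minus strand. CACGTG, an E-box bound by factors such as USF1 and MYC, stood between them at bases 79 to 84. GGGCGG, the core of a GC box, stood at bases 21 to 26 on the plus strand and bases 180 to 185 on the minus strand.

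In RefSeq promoter windows of 300 bases, from 250 before to 50 after each start, all 5 CREC genes and B3GALT6 had a match to CCAAT on either strand, as did 34.6% of 35116 windows, and all 6 had a match to GGGCGG, as did 45.0%. CACGTG was found in SDF4 and B3GALT6, whose windows overlap and share the match, and in none of the 4 paralogs, and 7.26% of windows hold it. GCCATNTT, the letters known for YY1, a factor that associates with the INO80 complex, was found in the SDF4 window, and 6.58% of windows hold it. None of the other 5 windows held it. On chromosome 1 the SDF4 window begins at base 1231952 and the B3GALT6 window at base 1231987. The SDF4 match lies just outside the B3GALT6 window, in the part of the SDF4 window that the other does not cover. Its absence from the B3GALT6 window is thus set by the window's edge. The window of INO80 had 1 match to GGGCGG and none to the other motifs. The GCCATNTT match lies 22 to 29 bases after the RefSeq start of SDF4. It reads as the reverse complement along the transcript and is marked by the capitals in the next line.
SDF4 after its start: ccgcaagaAAGATGGCagtggcct
These matches are descriptions of letters, and no binding was measured in these libraries.

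The genes that work with the CREC proteins were read by lists of the secretory pathway, 73 genes of which 72 were in the table and 66 were tested. Of the 66, 2 passed as lower and 0 as higher in edgeR, against 1.49% and 0.261% of all tested genes, and at an unadjusted p under 0.05 these counts were 8 and 5, against 9.20% and 7.18% of all tested genes. With the replicate block 12 passed as lower and 12 as higher, or 36.4%, against 24.8% of all tested genes in either direction. Of the 15343 tested genes, 2050 were lower and 1748 higher with the block. The median log2 fold change of the 66 was 0.02, beside 0.01 for all tested genes.

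The list on Golgi calcium and trans-Golgi sorting holds the genes through which Cab45 is known to act. None of its 10 tested genes passed in edgeR or in DESeq2, and the median log2 fold change was 0.01. Over all genes tested in each, 1.75% passed in edgeR and 610 of 13320 in DESeq2. Of the 10, 3 were lower at an unadjusted p under 0.05, against 9.20% of all tested genes. With the block 3 passed as lower and 1 as higher, or 40.0%, against 24.8% of all tested genes. ATP2C1, the Golgi calcium pump that fills the store Cab45 binds, had an edgeR adjusted p of 0.818. TMEM165, a Golgi ion exchanger, had an adjusted p of 0.926. CFL1, the cofilin known to act with actin at that pump, had means of 745 and 803 CPM in the control and INO80 siRNA libraries, a log2 fold change of 0.11 (adjusted p = 0.509 without and 0.0264 with the block). Its muscle paralog CFL2 had 136 and 124 CPM, a log2 fold change of -0.13 (adjusted p = 0.269 and 0.0127). SGMS1, which makes the sphingomyelin of the Cab45 sorting route, had 18.5 and 15.2 CPM, a log2 fold change of -0.28 (adjusted p = 0.233 and 0.0127). PRKD1, a kinase of carrier fission at the trans-Golgi network, had 14.1 and 11.1 CPM, a log2 fold change of -0.34 (adjusted p = 0.249 and 0.0124).

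Of the 11 receptors of retrieval and cargo transport, none passed in edgeR, against 1.75% of all tested genes. In DESeq2 1 passed, where 610 of 13320 tested genes did. At an unadjusted p under 0.05, 1 was lower (9.09%, against 9.20% of all tested genes). With the block 4 passed as lower and 1 as higher, or 45.5%, against 24.8% of all tested genes. LMAN2, a lectin that carries glycoproteins between ER and Golgi, had 85.1 ± 6.78 CPM in the control and 64.9 ± 4.02 CPM in the INO80 siRNA libraries (SD, both n = 3). Its log2 fold change of -0.39 ± 0.08 (SE) lay just outside the threshold (edgeR adjusted p = 0.0501) and passed with the block (adjusted p = 4.74e-07). LMAN1, a lectin of the same route, had a log2 fold change of -0.10 (adjusted p = 0.413 without and 0.0306 with the block), and SURF4, a cargo receptor, had 0.07 (adjusted p = 0.527).

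Among 19 chaperones and folding enzymes of the ER lumen, 1 passed as lower in edgeR, against 1.49% of all tested genes. At an unadjusted p under 0.05, 1 was lower (5.26%, against 9.20% of all tested genes) and 3 higher (15.8%, against 7.18%). DESeq2 called 2, and 610 of the 13320 genes it tested. With the block 2 passed as lower and 6 as higher, or 42.1%, against 24.8% of all tested genes. The median log2 fold change was 0.07. DNAJC3, a co-chaperone that also inhibits the kinase PERK, had 53.2, 59.2 and 67.2 CPM in the control libraries and 35.8, 40.7 and 45.0 CPM in the INO80 siRNA libraries. The 3 INO80 siRNA libraries lay below all control libraries, and the log2 fold change was -0.56 ± 0.11 (SE; edgeR adjusted p = 0.0471). Each of the 6 fits with 1 library left out lost this call. ERP44, a thiol chaperone of the early secretory pathway, had 72.9 and 88.9 CPM, a log2 fold change of 0.29 ± 0.06 (adjusted p = 0.0719 without and 2.72e-05 with the block). CALR, the main calcium-storing chaperone of the ER, had 1854 and 2002 CPM, a log2 fold change of 0.11 (adjusted p = 0.345 and 0.00854).

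The other EF-hand proteins of the secretory pathway, which share the calcium-binding fold of the CREC family, comprised 11 tested genes. None passed in edgeR, against 1.75% of all tested genes, or in DESeq2, against 610 of 13320. Of the 11, 2 were higher at an unadjusted p under 0.05, against 7.18% of all tested genes. With the block 4 passed as higher and 0 as lower, or 36.4%, against 24.8% of all tested genes. The median log2 fold change was 0.11. CGREF1, a secreted EF-hand protein, had a log2 fold change of 0.55 (adjusted p = 0.172 without and 0.00749 with the block). NUCB1, the Golgi calcium-binding protein nucleobindin, had 0.14 (adjusted p = 0.487 and 0.00542). SPARC, a secreted matrix protein, had 0.11 (adjusted p = 0.756 and 0.015), and FKBP9, an ER prolyl isomerase with EF hands, had 0.13 (adjusted p = 0.339 and 0.0223).

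Of the 11 tested pumps and channels that fill or empty the ER calcium store, 1 passed as lower in edgeR, against 1.49% of all tested genes. At an unadjusted p under 0.05, 3 were lower (27.3%, against 9.20% of all tested genes) and 0 higher (against 7.18%). DESeq2 called 2, and 610 of the 13320 genes it tested. With the block 3 passed as lower and 0 as higher, or 27.3%, against 24.8% of all tested genes in either direction. Of the 15343 tested genes, 2050 were lower with the block. RYR2, a calcium release channel, had 9.70, 8.81 and 7.55 CPM in the control libraries and 4.78, 5.59 and 5.12 CPM in the INO80 siRNA libraries. The groups did not overlap, and the log2 fold change was -0.75 ± 0.15 (SE; edgeR adjusted p = 0.0476). Each of the 6 fits with 1 library left out lost this call. The inositol trisphosphate receptor ITPR2 had 142 and 108 CPM, a log2 fold change of -0.40 (adjusted p = 0.0773 without and 1.85e-07 with the block), and ITPR3 had -0.19 (adjusted p = 0.234 and 0.000318). ATP2A2, the main calcium pump of the ER, had a log2 fold change of 0.06. None of the 4 tested partners of calumenin passed in edgeR with or without the block or in DESeq2, and 0 had an unadjusted p under 0.05. Without the block 1.75% of all tested genes passed in edgeR. Among them GGCX, the vitamin K-dependent carboxylase, had a log2 fold change of 0.08, and VKORC1, which recycles the vitamin, had -0.12.

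**Figure D4:**
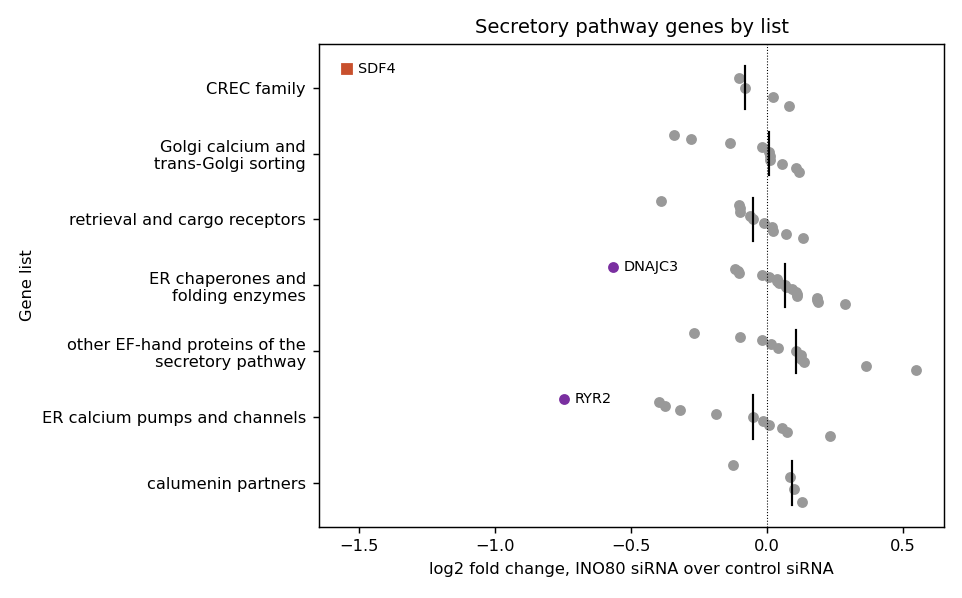
Log2 fold change of each tested gene of the CREC family and of 6 secretory pathway lists, 1 point per gene, with a bar at each list's median. SDF4 at -1.54 (orange square, chosen by this fall) stood apart, DNAJC3 and RYR2 (purple) are the called genes, and the other genes lay between -0.40 and 0.55.

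The genes whose levels followed SDF4 most closely were found by Pearson's r of log2(CPM + 1) over the 6 libraries, among 9736 genes with a mean of at least 10 CPM. They were GALNT14 (r = 0.999), a Golgi enzyme that starts O-linked glycans, FOPNL (r = 0.999), a centrosomal protein, VPS29 (r = 0.999), a retromer subunit that returns receptors from endosomes to the trans-Golgi network, SUCLG2 (r = 0.998), a mitochondrial succinyl-CoA ligase, and PCNP (r = 0.998), a nuclear protein. Their log2 fold changes were -0.09, -0.81, -0.67, -0.54 and -0.31, all smaller than that of SDF4. INO80 had r = 0.988 and B3GALT6 r = 0.961. Within the family, CALU had r = 0.41, RCN2 0.48, RCN3 0.08 and RCN1 -0.72. The points share the libraries and the treatment, so these values describe a shared pattern of 2 groups.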

How the data were processed

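RNA was taken from HK-2 cells after transfection for 48 h. Libraries were made from poly(A) RNA with a directional kit and sequenced as paired reads. The submitters' processing notes name HISAT2 2.0.1, HTSeq and hg19, the paper's methods name ELAND, and the table's coordinates are those of GRCh37. The authors deposited a raw count, without normalization, and an FPKM value per gene and library, where FPKM is the count divided by exonic length and library total. The FPKM of all 347430 values was recomputed from the counts within 0.006.

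Counts were fitted in R 4.3.3 with edgeR 4.0.16 (filterByExpr, TMM, quasi-likelihood test, treatment alone) over 15343 genes, with Benjamini-Hochberg adjustment over all of them, and a gene was called at an adjusted p under 0.05. Intervals are 95% intervals from that fit. CPM uses the reads on tested genes as library size. Nothing in the labels says that replicates were separate cultures, so p-values measure the spread between these libraries, which may be technical. Deviations from the group mean of libraries with the same replicate number correlated at 0.639, 0.446 and 0.427 across genes, against at most 0.165 for other pairs. Because such deviations add up to 0 within a group, positive values for same-numbered pairs push those of other pairs down. The number was taken to pair the libraries. The main fit does not use this pairing, and a fit with the number as a block is given where it changes a call. Replicates differed beyond sampling noise.

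The alternatives were the block, median-ratio scaling, no filter, DESeq2 1.42.0, limma 3.58.1 on log2(FPKM + 0.1) and log2(FPKM + 1), and leaving out each library. DESeq2 with the block and leaving out replicate 1 in both groups were chosen after seeing the data. On simulated data edgeR recovered 200 of 200 changed genes with and without the block. The changes were placed only in genes with many reads, at folds close to that of SDF4, with the spread between libraries capped. High recovery was thus built in, and it does not speak to smaller changes such as those of the paralogs. The rate of false calls of either fit is not given, so this recovery does not speak to how many genes each called.

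The genes, lists and tests were chosen with earlier results of these data known. The genes named are the 5 members, INO80, every tested gene within 100 kb of SDF4, the next tested gene on either side of each paralog, the 5 genes with the highest r to SDF4 and, per list, the called genes, the 3 with the smallest p and the 2 with the highest mean FPKM. From these, those described were taken by role, and ATP2C1 and TMEM165 were added after their values were seen. SARAF, AQP1 and PECAM1 had no single row of that symbol. Motifs were searched in Python 3.11.15 in RefSeq promoter sequences of GRCh38.p14, in which the 5 members, B3GALT6 and INO80 were all found.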

Additional observations from a re-analysis of the deposited data

How the results depend on the processing

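SDF4 kept its direction in all 14 alternatives, which is no test of it, since it was chosen by its fall in these libraries. Its log2 fold change ran from -1.59 to -1.47 over the fits without 1 library. No alternative but the block called a paralog, where 1 was called (CALU, -0.10). RCN3 turned sign in limma at a pseudocount of 0.1 (-0.0050) and ran from -0.50 to 0.70 over the leave-one-out fits. Among neighbours of SDF4, 0 were called in limma at either pseudocount and 0 in each fit without 1 library. Of the secretory genes, 24 were called with the block, 5 without a filter, 5 in DESeq2, 12 in DESeq2 with the block, 0 in limma at either pseudocount, 0 to 1 without 1 library, and 3 without replicate 1 in both groups. Over the genes each fit tested, 268 were called, against 3798 with the block, 708 without a filter, 610 in DESeq2, 1691 in DESeq2 with the block, 20 and 7 in limma, 18 to 146 without 1 library, and 528 without replicate 1 in both groups. The sets tested differ, with 15343 genes in the main fit and with the block, 29137 without a filter, 13320 in DESeq2, 12190 in DESeq2 with the block and 19662 in limma. The cause of the differences in calls was not tested.

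Signs turned in leave-one-out fits for DSTN (-0.041 to 0.079), FAM71F2 (-0.16 to 0.28), OPN1SW (-0.25 to 0.067), RP11-465B22.8 (-0.49 to 0.18), RP11-797A18.4 (-0.079 to 1.32), RP5-890O3.9 (-0.25 to 0.17), SCNN1D (-0.38 to 0.050), SPARC (-0.036 to 0.22), TMED2 (-0.010 to 0.042), UBE2J2 (-0.10 to 0.025) and TNFRSF18 (-0.21 to 0.28), which also turned in limma (0.036 and 0.018) and in DESeq2 with the block (0.017). Without replicate 1 in both groups they turned for RP11-465B22.8 (0.0092), RP5-890O3.9 (0.013) and SCNN1D (0.021). None of these 11 genes passed in edgeR with the treatment alone. The depth limits RCN3, with 3 to 22 reads per library.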

Other observations

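The gene ontology terms printed in the deposited table give wider lists around the CREC proteins. Of 86 genes annotated to the Golgi lumen, 38 were tested and 1 was called, SDF4 itself. With the replicate block 12 were lower, SDF4 among them, and 2 higher. Over all tested genes 1.75% were called, and 24.8% with the block. Of 170 genes of the ER lumen, 116 were tested, with 1 called lower, DNAJC3, and 2 called higher, DNAJB9, a co-chaperone of BiP, and POGLUT1, a glucosyltransferase of EGF repeats. With the block 21 were lower and 25 higher. Of 678 genes annotated to calcium ion binding, 368 were tested, with 5 lower, of which SDF4 was fixed by its choice, and 4 higher, and with the block 60 lower and 48 higher. The median log2 fold changes of the 3 terms were -0.05, 0.03 and -0.01, beside 0.01 for all tested genes.

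The table holds 812 pairs of tested genes that lie head to head on opposite strands, as SDF4 and B3GALT6 do. Their starts lie within 1000 bases of each other, and pairs with overlapping spans are not counted. In 27 of them at least 1 of the 2 genes was called lower. Over all tested genes 1.49% were called lower. That share is per gene and is not comparable with a count of pairs, since each pair holds 2 genes. In 2 of these pairs both were, SDF4 with B3GALT6 and SKA2 with PRR11, and the fall of SDF4 was fixed by its choice. In the other 25 pairs the partner was by construction not called lower, and 7 of these partners had a log2 fold change below 0, with a median of 0.10, while 48.5% of all tested genes lay below 0. NABP2, with a log2 fold change of -1.29, starts 81 bases from RNF41, whose log2 fold change was 0.25 ± 0.14 (SE; edgeR adjusted p = 0.415 without and 0.00308 with the block).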
